A study of Populus trichocarpa with 9 samples.

Results

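A set of 189 of the 41335 genes of Populus trichocarpa in the deposited table stood at least 4 times as high in xylem protoplasts overexpressing PtrHSFB3-1 as in protoplasts with GFP alone, while PtrMYB092 left the same genes under 1.5 times the GFP value. The members were chosen by these values, so their size is a description and not a test. Each library was divided by its scale factor, and each PtrHSFB3-1 or PtrMYB092 library was set over the GFP library of the same replicate number after adding 1 to both. A gene was taken where the geometric mean of its 3 PtrHSFB3-1 ratios was at least 4, each of the 3 was at least 2, the mean PtrMYB092 ratio was under 1.5, and the mean scaled value with PtrHSFB3-1 was at least 10. The conditions were met by 203 genes, of which 14 lie in a stretch of chromosome 4 that was left out, and 0 were monolignol genes or either transcription factor (TF), which were to be left out too. The mirrored conditions chose 54 genes raised by PtrMYB092 and not PtrHSFB3-1, and 30 genes passed for both TFs.

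SDX protoplasts are cells of stem-differentiating xylem, the tissue that forms wood, freed of their walls by enzymes. They came from 6-month-old Nisqually-1 trees grown in a greenhouse, were transfected with a plasmid and were collected after 12 h, with 3 libraries for each of the PtrHSFB3-1, PtrMYB092 and GFP constructs. The 2 TFs were driven by the strong 35S promoter from a plasmid that also carried a 35S-driven sGFP, the modified green fluorescent protein that the control plasmid carried alone. Expression was therefore transient and far above the tree's own, and cells without plasmid were not removed in the steps described. PtrHSFB3-1 stood at 19859, 31149 and 42965 in the PtrHSFB3-1 libraries, at 119, 105 and 165 in the PtrMYB092 libraries and at 67, 53 and 61 in the GFP libraries. PtrMYB092 stood at 6, 6 and 4 in the PtrHSFB3-1 libraries, at 6922, 11036 and 17727 in the PtrMYB092 libraries and at 4, 5 and 4 in the GFP libraries. The transgene levels fit the titles of all 9 libraries, whereas 1 label field of PtrMYB092 replicates 2 and 3 names the other TF.

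Heat shock factors bind short repeated elements in promoters, where class A members switch on chaperone genes under heat. Class B members, to which PtrHSFB3-1 belongs, lack the activation domain of class A, and several in Arabidopsis are known as repressors. PtrMYB092 is an R2R3-MYB protein, a plant family in which several members control secondary wall and lignin genes. Comparing both TFs with the same GFP cells asks which transcripts follow one factor and not the other. The IDs of the members are paired with no gene name or product in the sources used here, so no role is given for any of them, and an ID says only on which chromosome and in which order a gene lies.

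The deposited values are whole numbers with column totals between 428358 and 495579. They scatter less than reads at the low end: in the 36 pairs of libraries, 81.9% to 97.5% of the genes that summed to 2 over a pair stood at 1 in both. They were treated as a score of unstated scale. The number of reads behind them is unknown, and a value of 0 is given as listed at 0. Marker genes of the tissue had low values: the 5 secondary wall CesA genes and PtrIRX10-1, a xylan gene, stood at 0 to 2 in every library, with sums over these 6 genes of 1 to 6 in the PtrHSFB3-1 libraries, 3 to 8 in the PtrMYB092 libraries and 1 to 6 in the GFP libraries. PtrActin, used as a control gene, stood between 86 and 113. In bulk RNA, a change in the share of cells that express a gene cannot be told apart from a change within the cells.

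The mean PtrHSFB3-1 ratio of the members ranged between 4.02 and 59.6 with a median of 6.60 and quartiles of 5.06 and 9.52. It was at least 30 for 6 members, 10 to under 30 for 39, 5 to under 10 for 99 and under 5 for 45. On the log2 scale the median ratio was 2.72 over the members, against 0.02 over the 6757 genes that met the level condition (the level floor in the plots). Just inside the limit on the ratio lay members at 4.02 and 4.04, and just outside lay genes at 3.97 and 3.95. The limit on the ratio kept out 244 genes that met every other condition, the PtrMYB092 limit 68, the level 79 and the lowest paired ratio 2. Just inside and outside, the PtrMYB092 ratio was 1.49 and 1.52, the level 10.1 and 9.99, and the lowest paired ratio 2.09 and 1.95.

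**Figure D1:**
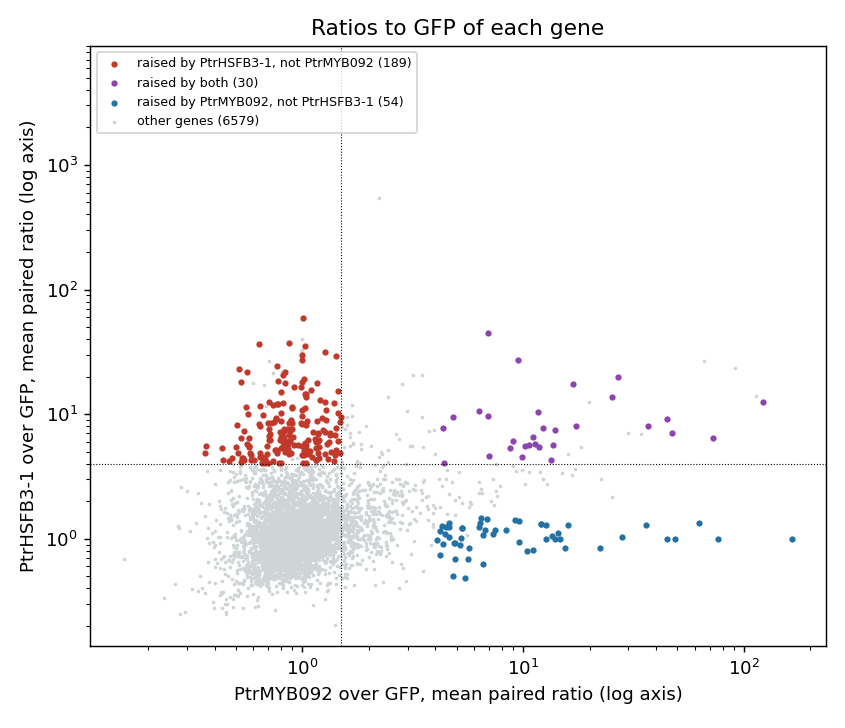
Mean paired ratio to GFP of each gene with PtrHSFB3-1 (vertical, log axis) against PtrMYB092 (horizontal, log axis), for genes that met the level condition and the genes chosen for PtrMYB092; dotted lines mark ratios of 4 and 1.5. The 189 members fill the upper left by their choice, with ratios between 4.02 and 59.6, and the 54 genes of PtrMYB092 and the 30 genes of both TFs lie apart to the right.

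The 2 members with the largest ratios were Potri.007G074400 and Potri.004G086300. Potri.007G074400, on chromosome 7, stood at 51, 98 and 136 with PtrHSFB3-1, at 1, 1 and 0 with PtrMYB092 and at 1, 0 and 1 with GFP. Its 3 paired ratios were 31.2, 95.3 and 71.3, which is 5.90 ± 0.83 on the log2 scale (SD, n = 3). It was near the bottom of the scale in all 6 other libraries, and no PtrHSFB3-1 library came close to them. Potri.004G086300, on chromosome 4 outside the stretch left out, stood at 185, 95 and 117 with PtrHSFB3-1, at 7, 1 and 1 with PtrMYB092 and at 8, 1 and 2 with GFP. Its log2 ratio was 5.21 ± 0.50 (SD, n = 3), and replicate 1 was its highest library with each construct.

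A ratio to values this low depends on the 1 that was added. With 5 added in its place, the log2 ratios of these 2 genes became 4.12 and 4.11, and only 96 genes met the conditions, 92 of them among the 189. The sizes of the largest ratios and the number of members thus depend on this constant, and the order of a member's libraries does not.

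All other IDs below were singled out after their values were seen. The member with the highest level, Potri.010G182200, stood at 862, 1382 and 1633 with PtrHSFB3-1, at 238, 345 and 378 with PtrMYB092 and at 207, 230 and 255 with GFP. Its PtrHSFB3-1 ratio of 6.04 rests on values far from 0, and its PtrMYB092 ratio of 1.45 lay just under the ceiling. Potri.009G140400 stood at 855, 1163 and 838 with PtrHSFB3-1, at 84, 132 and 103 with PtrMYB092 and at 117, 151 and 107 with GFP. Its paired ratios of 8.86, 8.22 and 8.23 were almost equal, at 3.08 ± 0.06 on the log2 scale (SD, n = 3). The mean scaled PtrHSFB3-1 values of the members had a median of 41.6 and a highest of 1342. They were under 20 for 52 members, 20 to under 100 for 90 and at least 100 for 47.

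At the other end, 9 members were listed at 0 in all 3 GFP libraries, and 6 of them also in all 3 PtrMYB092 libraries. The values of these 6 with PtrHSFB3-1 lay between 2 and 42. Potri.011G095900 was the most even of these, at 22, 23 and 30 with PtrHSFB3-1 and listed at 0 in the 6 other libraries. Potri.013G052100 was the least even, at 31, 5 and 3 with PtrHSFB3-1 and likewise listed at 0 elsewhere. Over the members, 40 were listed at 0 in at least 1 GFP library, 53 in at least 1 PtrMYB092 library and 0 in any PtrHSFB3-1 library. The last count is fixed by the choice, as a PtrHSFB3-1 value of 0 cannot reach the lowest paired ratio allowed. A GFP value of 0 raises the ratio and so favours the choice. Shares over all genes were not counted, and nothing is read from the difference between constructs.

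Summed over the members, the deposited values made up 4.99%, 3.38% and 3.68% of the column totals of the PtrHSFB3-1 libraries, 1.00%, 0.466% and 0.504% of those of the PtrMYB092 libraries and 1.20%, 0.508% and 0.579% of those of the GFP libraries. Replicate 1 had the largest share with each construct. The median scaled value of a member was 58.3, 26.0 and 34.8 in the PtrHSFB3-1 libraries, 4.13, 1.87 and 2.09 in the PtrMYB092 libraries and 5.84, 2.69 and 2.90 in the GFP libraries. The lowest of the PtrHSFB3-1 medians was over the highest of the others.

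**Figure D2:**
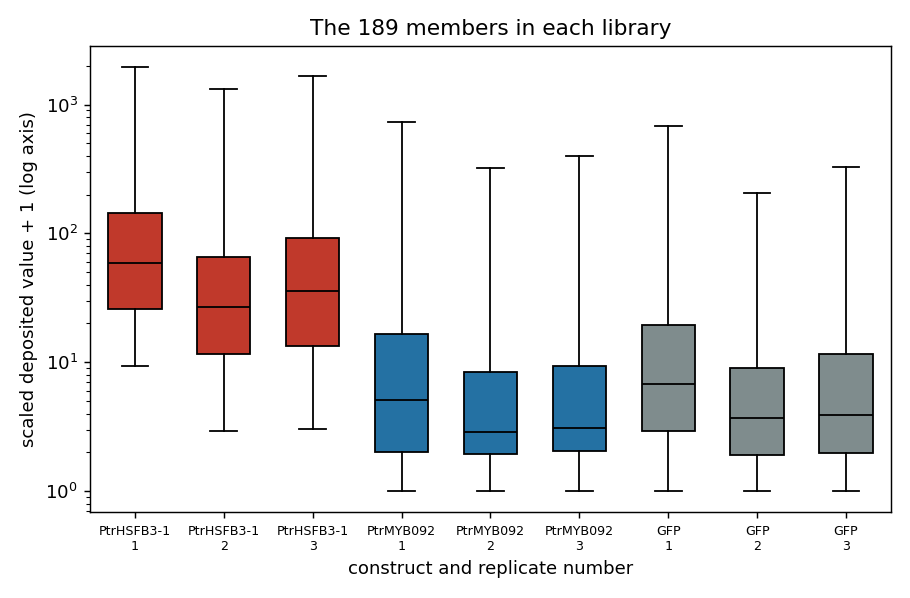
Scaled deposited values plus 1 (log axis) of the 189 members in the 9 libraries, by construct and replicate number; boxes span the quartiles, lines mark medians and whiskers reach the lowest and highest member. The PtrHSFB3-1 medians are 58.3, 26.0 and 34.8 before adding 1, and replicate 1 is the highest library of each construct.

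In 171 of the 189 members every PtrHSFB3-1 library was above all 6 others. Over the 7653 genes that passed the filter on low values (3 or more libraries with a value of 10 or more after scaling to the median total, and 15 or more in all), 10.5% had this order; the choice of members favours it, so the difference is not a result. The filter was passed by 140 members, and 49 were too low. In the 18 members whose libraries overlapped, the highest of the other libraries was always a replicate 1, of GFP in 16 and of PtrMYB092 in 2, and the lowest PtrHSFB3-1 library was replicate 2 in 11 and replicate 3 in 7. In Potri.001G290300 this is plain: it stood at 67, 21 and 44 with PtrHSFB3-1, at 32, 3 and 5 with PtrMYB092 and at 35, 1 and 11 with GFP, so that GFP replicate 1 exceeded PtrHSFB3-1 replicate 2 although each PtrHSFB3-1 library was at least 2.30 times the GFP library of its own number.

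With PtrHSFB3-1, 130 members (68.8%) were highest in replicate 1, 10 in replicate 2 and 49 in replicate 3. Over the 6757 genes that met the level condition the shares were 51.8%, 21.4% and 26.7%. The lead of replicate 1 was thus seen in most genes and in a larger share of members. It was not particular to them. Replicate 1 was also highest with PtrHSFB3-1 in 26 of the 30 genes raised by both TFs (86.7%). Of the genes raised by PtrMYB092 only, it was highest in 30 of the 46 above 0 there (65.2%). With PtrMYB092 the highest library was replicate 1 in 100 of the 177 members above 0 there, replicate 2 in 14 and replicate 3 in 63 (56.5%, 7.91% and 35.6%, against 41.4%, 17.7% and 41.0% of all such genes). With GFP it was replicate 1 in 125 of 180, replicate 2 in 11 and replicate 3 in 44 (69.4%, 6.11% and 24.4%, against 45.3%, 18.2% and 36.5%). Replicate 1 led with both PtrHSFB3-1 and GFP in 107 members (56.6%, against 35.5% of all genes that met the level condition), and replicate 3 with both in 27 (14.3%, against 16.4%). Where the low values are equal, this order comes from the scale factors alone.

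The paired ratio was highest in number 1 for 77 members (40.7%), in number 2 for 55 (29.1%) and in number 3 for 57 (30.2%), near the 45.7%, 27.8% and 26.5% of all genes that met the level condition, with medians over the members of 6.91, 6.22 and 6.33. Between the highest and the lowest PtrHSFB3-1 library of a member lay a median of 2.44-fold, and between its highest and lowest paired ratio 1.88-fold, against 1.42-fold and 1.37-fold over all genes that met the level condition. The choice set a lowest value for each paired ratio and none for the libraries, so nothing is read from the difference between them. The 3 paired ratios lay within 2-fold of each other in 103 members. Potri.006G137600 showed the widest range of libraries, at 254, 14 and 8 with PtrHSFB3-1, at 5, 0 and 0 with PtrMYB092 and at 5, 0 and 0 with GFP. Its libraries spanned 33.0-fold with PtrHSFB3-1, whereas its paired ratios were 51.6, 14.5 and 9.19. The other way round, Potri.016G125000 stood at 745, 434 and 490 with PtrHSFB3-1, at 135, 10 and 8 with PtrMYB092 and at 176, 11 and 15 with GFP, and its paired ratios of 5.15, 38.6 and 32.5 differed mainly through GFP. The level of the transgene was lowest in replicate 1 and highest in replicate 3. In scaled values, 33 of the 189 members had their PtrHSFB3-1 libraries in that order. The same share over all genes was not counted, so nothing is read from this number.

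**Figure D3:**
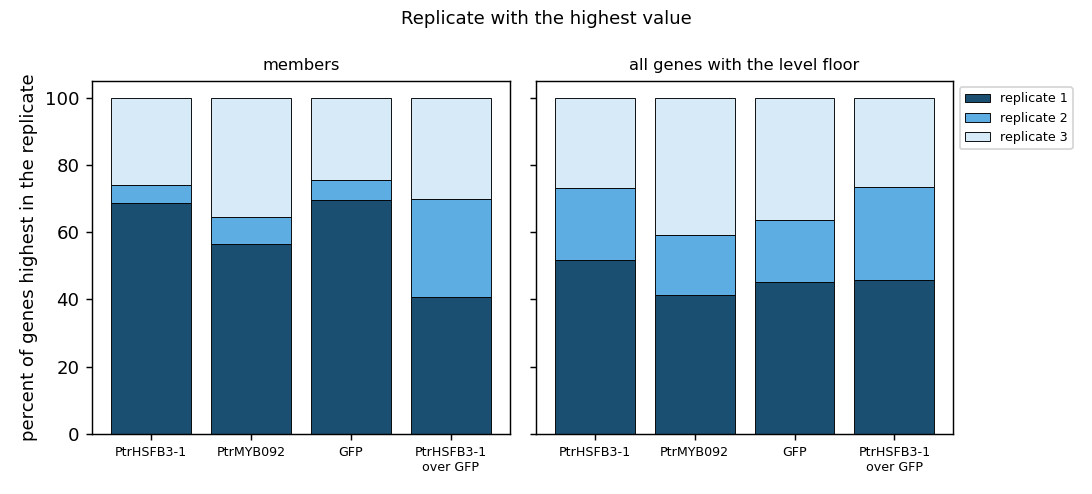
Percent of genes whose highest value fell in replicate 1, 2 or 3, for the members (left) and all genes that met the level condition (right), by construct and for the paired ratio of PtrHSFB3-1 over GFP. Replicate 1 was highest in 68.8% of members with PtrHSFB3-1, against 51.8% of all genes, and in 40.7% of members for the paired ratio.

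Measured in libraries that the choice did not use, the ratio stayed high. The conditions were applied to replicate numbers 2 and 3, 1 and 3, and 1 and 2, and the ratio was then read in the number left out. With number 1 left out, 162 genes were chosen, and the median of their ratio there was 5.82, against 1.05 over the 6519 genes that met the level condition in the same way. With number 2 left out, 195 genes had a median of 5.89, against 1.02 over 6775 genes. With number 3 left out, 211 genes had a median of 6.12, against 0.973 over 6852 genes. The left-out ratio was at least 2 in 157 (96.9%), 193 (99.0%) and 202 (95.7%) of the chosen genes, against 12.5%, 11.8% and 12.6% of all. Its lowest value was 1.55, 1.97 and 1.48, so that 0 of the chosen genes were under 1. A ratio of at least 4, as the conditions asked of the mean, was met in 118 (72.8%), 158 (81.0%) and 157 (74.4%) of them. Over all genes the shares were 3.82%, 4.12% and 4.13%. The comparisons use the 3 pairs of libraries one at a time, so they are counts and medians with no p.

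**Figure D4:**
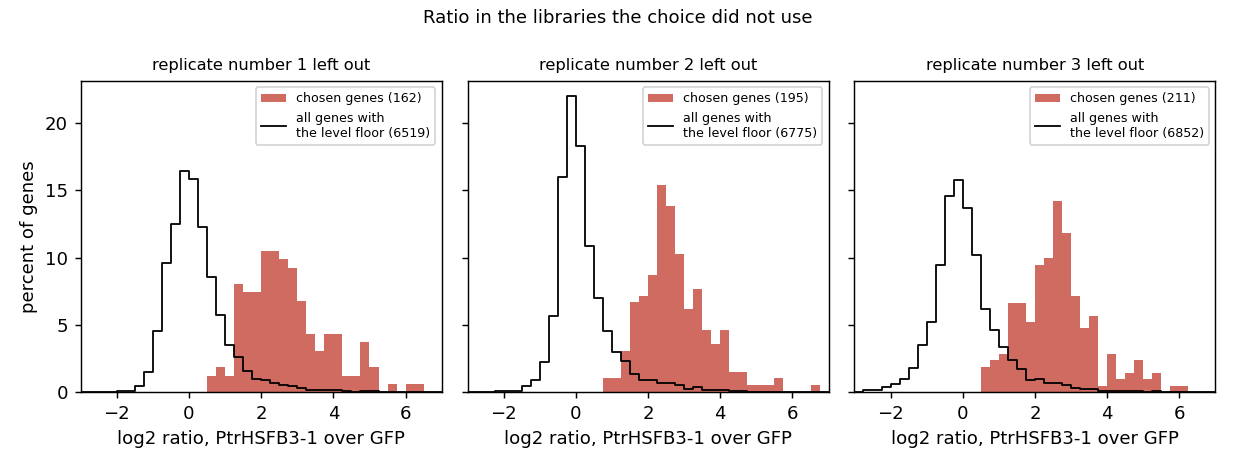
Log2 ratio of PtrHSFB3-1 over GFP (horizontal) in the replicate number that was left out of the choice, as a percent of genes (vertical), for the genes chosen from the other numbers (red bars) and all genes that met the level condition (black line). The chosen genes have median ratios of 5.82, 5.89 and 6.12, which are above 2 on the log2 scale, and all genes centre near 0.

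The other side of the choice, a PtrMYB092 ratio under 1.5, lay near the background in the left-out number. It held in 149 (92.0%), 180 (92.3%) and 187 (88.6%) of the chosen genes and in 91.9%, 92.0% and 87.9% of all genes that met the level condition. A left-out PtrMYB092 ratio over 2 was seen in 5, 3 and 11 of the chosen genes, and 0 reached 4.

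Within its ceiling, the PtrMYB092 ratio of the members ranged between 0.361 and 1.49, with a median of 0.859 and quartiles of 0.705 and 1.06. Over all genes that met the level condition the median was 0.915. It was over 1 in 65 members, exactly 1 in 6 and under 0.8 in 71. All 3 PtrMYB092 libraries were below their GFP partners in 49 members (25.9%), against 42.0% of all genes that met the level condition. The choice used this contrast and the same GFP libraries, so nothing is read from the difference. A member listed at 0 in a GFP library, as 40 were, cannot be lower in that pair.

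A ratio under 0.5 was seen in 7 members (3.70%), against 1.91% of all genes that met the level condition, and here too the choice used the contrast. The lowest belonged to Potri.001G078200, at 102, 47 and 79 with PtrHSFB3-1, at 11, 2 and 4 with PtrMYB092 and at 57, 5 and 12 with GFP. Next came Potri.003G061200, at 816, 303 and 338 with PtrHSFB3-1, at 129, 19 and 10 with PtrMYB092 and at 203, 44 and 74 with GFP. In both, each PtrMYB092 library was below the GFP library of its number, and each PtrHSFB3-1 library above it. Another 2 of the 7 are neighbours with nearly the same profile. Potri.001G223300 stood at 1085, 328 and 207 with PtrHSFB3-1, at 175, 31 and 18 with PtrMYB092 and at 302, 69 and 53 with GFP. Potri.001G223400 stood at 948, 278 and 182 with PtrHSFB3-1, at 153, 29 and 15 with PtrMYB092 and at 277, 65 and 47 with GFP. How reads shared by near-identical neighbours were counted is not given in the sources used here, so these 2 may not be separate measurements. The same holds for a pair with higher PtrMYB092 ratios. Potri.019G010800 stood at 1639, 730 and 549 with PtrHSFB3-1, at 506, 99 and 78 with PtrMYB092 and at 694, 175 and 97 with GFP. Potri.T019200, on a scaffold, stood at 1528, 637 and 588 with PtrHSFB3-1, at 412, 96 and 69 with PtrMYB092 and at 664, 147 and 120 with GFP.

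The PtrMYB092 libraries also held more PtrHSFB3-1 transcript than GFP, at 119, 105 and 165 against 67, 53 and 61, a mean paired ratio of 2.23. The members were chosen to have ratios under 1.5 there. That level is far under the 19859 to 42965 of the PtrHSFB3-1 libraries.

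A linear model over all genes (limma, 1 mean per construct, Benjamini-Hochberg adjusted p under 0.05 and the fold limits of over 2 or under 0.8) called 117 of the 140 members that passed the filter higher with PtrHSFB3-1 than with GFP, where 6.06% of all 7653 genes were called. Against PtrMYB092 it called 126 of the 140 higher with PtrHSFB3-1, and 6.45% of all genes. Both counts follow from the choice of members, and nothing is read from them. The 23 members that were not called had log2 fold changes between 1.96 and 4.16, all over the fold limit. Potri.016G125000, with the values above, had the largest (adjusted p = 0.0553, limma). With the replicate number as a block, all 140 were called in both comparisons, where 8.86% of all genes were called against GFP and 8.96% against PtrMYB092.

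With PtrMYB092 against GFP, 0 of the 140 members were called higher and 0 lower by limma, where 4.13% and 0.588% of all genes were. At an unadjusted p under 0.05, 0 members were higher and 8 (5.71%) lower, against 10.1% and 8.04% of all genes. The ceiling of 1.5 on the PtrMYB092 ratio keeps members from a call that asks for a fold over 2, so nothing is read from the counts of higher members, nor from the others, which use the same contrast. With the replicate number as a block, 20 of the 140 (14.3%) were called lower with PtrMYB092, where 11.8% of all genes were, and this share too comes from a contrast that the choice used. Their log2 fold changes had a median of -0.95, and the lowest were -1.49 ± 0.32 for Potri.001G078200 (SE, adjusted p = 0.0109) and -1.47 ± 0.37 for Potri.003G061200 (SE, adjusted p = 0.0225), both from limma with the block.

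A part of the members were neighbours by their IDs, and the same share over all genes that met the level condition was not counted. The choice used position only in leaving out the stretch of chromosome 4. By their IDs 181 lie on numbered chromosomes and 8 on scaffolds. IDs rise in steps of 100 along a chromosome, and members whose numbers differ by at most 1000, about 10 genes, were joined to runs. This gave 29 runs that hold 72 of the 181 members (39.8%), and 7 runs have at least 3 members and hold 28 in all. With a gap of at most 100, where no other ID lies between, 39 members (21.5%) were still in runs, of which there were 18. With the genes of the chromosome 4 stretch kept in, the shares would be 43.6% (85 of 195) and 26.2% (51 of 195). Of the genes raised by PtrMYB092 only, 4 of 52 (7.69%) lay in runs, and of those raised by both TFs 6 of 28 (21.4%). A longer list has more neighbours by its length. Taking only as many members as those lists have, by the largest ratios, 11 of 49 (22.4%) lay in runs beside the list of PtrMYB092 and 2 of 27 (7.41%) beside the list of both TFs. With the gap of at most 100, these shares were 4 of 49 (8.16%) beside 4 of 52 (7.69%), and 0 of 27 beside 4 of 28 (14.3%). At equal length the members thus did not have a larger share than both lists at either gap, and no difference was tested.

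By chromosome, members made up 8.21% of the genes that met the level condition on chromosome 19 (16 of 195), 5.76% on chromosome 11 (14 of 243), 5.68% on chromosome 17 (13 of 229) and 4.88% on chromosome 12 (12 of 246). The lowest shares were 0.817% on chromosome 8 (3 of 367) and 0.965% on chromosome 9 (3 of 311). Of the 4 chromosomes with the largest shares, each holds 1 of the 7 longer runs.

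The closest run lies on chromosome 19, where 5 members have consecutive IDs, Potri.019G012600 to Potri.019G013000. Potri.019G012700 was the highest, at 353, 211 and 268 with PtrHSFB3-1, at 67, 18 and 41 with PtrMYB092 and at 73, 13 and 39 with GFP. Its first neighbour, Potri.019G012600, stood at 159, 64 and 86 with PtrHSFB3-1, at 24, 7 and 10 with PtrMYB092 and at 36, 5 and 17 with GFP. Replicate 1 was highest and replicate 2 lowest in each construct for both genes. Potri.019G013000, at the other end, stood at 81, 24 and 35 with PtrHSFB3-1, at 20, 2 and 2 with PtrMYB092 and at 23, 4 and 6 with GFP. The PtrHSFB3-1 ratios of the 5 lay between 4.91 and 8.75 and their PtrMYB092 ratios between 0.641 and 1.16.

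The run on chromosome 17, also of 5 members, is not unbroken. Between Potri.017G133900 and Potri.017G135300 lie 10 other IDs, of which 6 were listed at 0 in all libraries and 1 had a PtrHSFB3-1 ratio of at least 2. Potri.017G134700 had the largest ratio of the run, 16.7, at 36, 24 and 36 with PtrHSFB3-1, at 1, 0 and 3 with PtrMYB092 and at 2, 0 and 2 with GFP. Potri.017G135300 was the highest, at 231, 258 and 268 with PtrHSFB3-1, at 19, 37 and 25 with PtrMYB092 and at 20, 45 and 35 with GFP. The first gene did not share this evenness: Potri.017G133900 stood at 53, 9 and 13 with PtrHSFB3-1, at 1, 0 and 1 with PtrMYB092 and at 2, 0 and 1 with GFP. Members of 1 run thus differed in which replicate was high. Potri.017G135000, in their midst and no member, stood at 214, 212 and 202 with PtrHSFB3-1, at 101, 166 and 236 with PtrMYB092 and at 110, 124 and 160 with GFP.

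On chromosome 16 2 members of a run of 4 had like profiles. Potri.016G131600 stood at 140, 166 and 304 with PtrHSFB3-1, at 18, 12 and 8 with PtrMYB092 and at 23, 16 and 13 with GFP. Potri.016G131400 stood at 42, 66 and 123 with PtrHSFB3-1, at 6, 5 and 4 with PtrMYB092 and at 7, 5 and 6 with GFP. As deposited, both rose in the order of the transgene over the PtrHSFB3-1 libraries, and their ratios were 12.0 and 11.3. After division by the scale factors, only Potri.016G131400 kept that order. The 2 IDs before and after Potri.016G131400 had the same values as each other, 2, 2 and 6 with PtrHSFB3-1 and listed at 0 elsewhere, too low for the level condition. Identical values in 9 libraries can come from reads shared between copies, which was not tested.

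On chromosome 12 the 4 members of a run had ratios between 4.86 and 9.78, with PtrMYB092 ratios between 0.511 and 0.884. Of the 4 other IDs between them, 3 had a PtrHSFB3-1 ratio of at least 2, and all 3 were under the level condition. The most even of these was Potri.012G003400, at 4, 3 and 3 with PtrHSFB3-1 and listed at 0 in the 6 other libraries. The runs on chromosomes 6 and 10 hold 3 members each, with ratios between 4.69 and 5.71 and between 4.26 and 8.96.

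The run on chromosome 11 spans 21 IDs with 4 members, of ratios between 4.28 and 5.52, and holds genes of several patterns. Potri.011G030800, its last member, stood at 47, 36 and 56 with PtrHSFB3-1, at 16, 5 and 3 with PtrMYB092 and at 17, 4 and 8 with GFP. Its direct neighbour, Potri.011G030700, was higher with both TFs, at 60, 47 and 71 with PtrHSFB3-1, at 32, 29 and 51 with PtrMYB092 and at 5, 4 and 7 with GFP. Potri.011G030500, a further 2 IDs away, was no member either, at 78, 54 and 77 with PtrHSFB3-1, at 23, 9 and 12 with PtrMYB092 and at 45, 20 and 38 with GFP, a PtrMYB092 ratio of 0.462. Within 4 consecutive IDs thus lay a member, genes raised by both TFs, and a gene whose ratio was over 2 with PtrHSFB3-1 and under 0.5 with PtrMYB092.

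**Figure D5:**
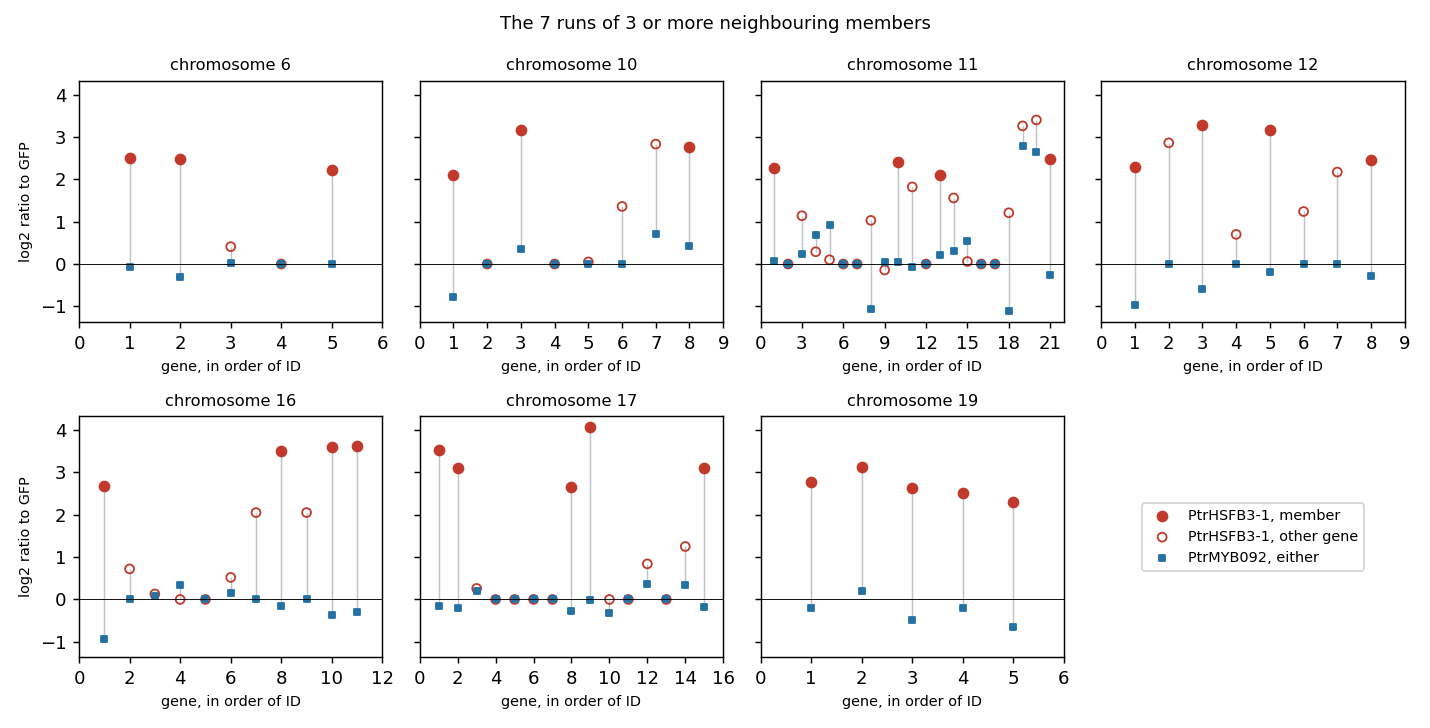
Log2 ratio to GFP (vertical) of each gene in the 7 runs of at least 3 members, in the order of their IDs (horizontal), with PtrHSFB3-1 (red circles, filled for members) and PtrMYB092 (blue squares). Members lie at or above 2 on the PtrHSFB3-1 scale by their choice; on chromosome 11 a pair of genes is high for both TFs, and on chromosome 19 the 5 members have no other ID between them.

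Of the 313 direct neighbours of members that are no members themselves, only 64 met the level condition. Among these 64, 22 (34.4%) had a PtrHSFB3-1 ratio of at least 2, against 12.0% (814) of the 6757 genes. Their median ratio was 1.49 against 1.02. The level condition was set on the PtrHSFB3-1 libraries, so a neighbour low with GFP passed only where it was high with PtrHSFB3-1. The 6757 genes met the same condition and include the 189 members. No tendency of neighbours in general is read from these shares. With PtrMYB092, 2 of the 64 (3.13%) had a ratio of at least 2, against 4.04%. Beside the genes of PtrMYB092 only, 2 of 19 neighbours (10.5%) had a PtrHSFB3-1 ratio of at least 2, and beside those of both TFs 3 of 12 (25%). These shares were not tested, and reads shared between similar neighbours could enter them.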

How the data were processed

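RNA-seq reads of 9 libraries were mapped by the authors to the P. trichocarpa genome with Bowtie 2 according to the methods, and TopHat is named in the submitters' processing notes. How reads were counted, whether by strand, and how shared reads were assigned is not given in the sources used here. Labelled as raw counts, the deposited values scatter less than reads at the low end, so they were taken as a score of unstated scale, and no count model was used. Neither the labels nor the methods give more on the 3 replicates of a construct than that they are biological, so a p-value covers only the spread among the libraries at hand.

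Columns were scaled by the median of ratios for the choice of members. For the model, values were scaled by TMM (unweighted, 30% of ratios and 5% of levels trimmed at each end) and fitted as log2(value + 1) with limma 3.58.1 in R 4.3.3 over all 9 libraries, with a trend on the mean. The remaining steps used Python 3.11.15. The functions were tested on simulated data. Correlations of the deviations from group means, over genes, were 0.415 to 0.778 for the 9 pairs of libraries that share a replicate number. By these values the numbers pair the libraries. For the 18 others the correlations were -0.609 to 0.184. Deviations cancel out within a construct, so these lower values follow in part from the first and are no separate support.

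The members, the lists for comparison and the tests were chosen with earlier results of these data known. The 2 members with the largest ratios were named by rule, and other IDs after their values were seen. Of the 41335 IDs 0 matched the reference table used here, so the planned lists of functions, motifs and proteins were not used. Other settings of scaling, added constant, limits, filter, block and libraries were tried.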

Additional observations from a re-analysis of the deposited data

How the results depend on the processing

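Of the 15 other settings of the choice, 12 gave a number of members within 1.5 times of 189, between 137 and 244. It was 96 with 5 added to the values, 288 with a lowest PtrHSFB3-1 ratio of 3 and 70 with one of 8. Without replicate 1, 2 or 3 of all constructs it was 162 to 211, with 137 to 173 of the 189 shared, and with ratios of group means in place of pairs (no replicate block) it was 176, with 168 shared. Of the 140 members tested, limma called 88 to 140 higher with PtrHSFB3-1 than with GFP under the other settings, and 93 to 123 without 1 library. Of all 7653 genes it called 249 to 678 and 274 to 483. Against PtrMYB092 the members called were 99 to 140 and 103 to 133, and all genes called 298 to 686 and 351 to 528. With every gene above 0 kept, 189 members and 27542 genes were tested. There 140 members and 900 genes were called against GFP, and 163 members and 1109 genes against PtrMYB092. Members called higher with PtrMYB092 numbered 0 under each setting, as the ceiling on that ratio leads to, which says nothing about stability. Members called lower with PtrMYB092 numbered 20 with the replicate block, 1 in the fit of only the 6 libraries compared, and 0 to 1 without 1 library (1 without PtrHSFB3-1 replicate 3 or PtrMYB092 replicate 2).

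The median left-out ratio was tried under 3 settings chosen after the data were seen. For numbers 1, 2 and 3 it was 5.44, 6.08 and 6.18 with TMM, 5.27, 5.18 and 5.15 with 5 added, and 7.55, 4.89 and 5.10 over the mean of the GFP libraries (no replicate block). Members in runs, also tried after the data were seen, made up 35.4% with a gap of 500 and 21.5% with one of 100, and 43.6% with the chromosome 4 stretch kept in. With 3 libraries per construct, a value of 1 or 2 limits what a ratio can show, and the number of reads behind it is unknown.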
